A study of Hipposideros armiger and Mus musculus with 20 samples.

Results

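Markers of mesothelium and visceral fat, 6 of 14871 genes, were followed in a table of adipose tissue expression from mice and from the great roundleaf bat (Hipposideros armiger). They were taken by name: the transcription factor genes Wt1 and Tcf21, the mesothelial surface protein gene Msln, the uroplakin genes Upk3b and Upk1b, and Lrrn4, which encodes a membrane protein with leucine-rich repeats. All 6 were found in the table. The study held mice and bats at 30 °C or 10 °C for 7 days and sequenced RNA from their fat depots in 20 libraries. The mice, with 8 libraries, were of the ICR strain and gave brown fat from between the shoulder blades (interscapular, iBAT) and white fat from under the skin (subcutaneous, sWAT). The bats, with 12 libraries, were labelled as wild type and gave the same depots and white fat from within the abdomen (intra-abdominal, aWAT), the one visceral depot of the study. Each of the 10 groups of species, depot and temperature held 2 libraries, 1 from a female and 1 from a male. The labels do not give ages, say whether depots were taken from the same animals, or say how the bats were obtained.

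Mesothelium is the sheet of flattened epithelial cells that covers the abdominal organs and lines the body cavity. It also covers visceral fat depots, whereas subcutaneous and interscapular fat have no such covering. Wt1 encodes a zinc finger transcription factor that is made in mesothelial cells and in precursors of visceral white fat cells, and Tcf21 encodes a basic helix-loop-helix factor of visceral stromal cells. Msln encodes mesothelin, a lipid-anchored surface protein, and the uroplakins are membrane proteins best known from bladder epithelium, some of which mesothelium also makes.

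Levels are given in FPKM, a count of fragments per library size and per kilobase of a transcript, so that genes are compared per length. Read totals were unknown. Relative depth, as read from low values with 1 library of each species as 1, was 0.952 to 1.11 for mouse libraries and 0.624 to 1.08 for bat libraries, of which the 4 iBAT libraries, at 0.624 to 0.738, were the shallowest. Summed FPKM ran from 263338 to 358510. In the bat, some genes that every cell uses were themselves listed at or near 0: Actb, a cytoskeletal actin, was listed at 0 in 8 of 12 bat libraries but had a median of 164 FPKM in mouse. A bat value of 0 is therefore reported as listed at 0 and not as absence, and levels were not compared between species. Levels of different bat genes are given as listed, and their order may depend on how reads were tied to genes. Genes of general and white fat cells (9 in the table) summed to between 7676 and 18849 FPKM in every bat library.

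In the mouse annotation (GENCODE M21, build GRCm38; the build behind the deposited values is not given in the sources used here), Wt1 (ENSMUSG00000016458) lies at chr2:105126529-105173616 on the plus strand, and its 9 transcripts cover 6195 exonic bases. Tcf21 (ENSMUSG00000045680) lies at chr10:22817281-22820174 on the minus strand and overlaps an antisense gene, Gm10824, which is not among the genes of the table, so reads of the pair cannot be told apart without strand. Msln (ENSMUSG00000063011) lies at chr17:25748613-25754378 on the minus strand, with 3064 exonic bases. Upk3b (ENSMUSG00000042985) lies at chr5:136038496-136046487 on the plus strand, with 3530 exonic bases, and Upk1b (ENSMUSG00000049436) at chr16:38773184-38800328 on the minus strand, with 2089. Lrrn4 (ENSMUSG00000043110) lies at chr2:132868305-132880891 on the minus strand, with 3715 exonic bases. Genes of all 6 names are annotated in the RefSeq assembly of the bat.

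Each of the 6 genes was highest in bat intra-abdominal fat. All 4 aWAT libraries lay above all 8 other bat libraries for each of the 6. The share of all genes with such a gap was not counted, so this describes the 6 genes only. The aWAT libraries held between 89.7% (Wt1) and 97.4% (Tcf21) of the FPKM of the gene summed over the bat libraries. Within aWAT the order of listed levels was the same in each of the 4 libraries: Upk3b was highest, followed by Msln, Upk1b, Lrrn4, Wt1 and Tcf21. Since it is not given how bat reads were tied to mouse genes, this order describes the listed values and not amounts of RNA. Neighbours in that order were not always apart across libraries, since Msln at 10.7 to 22.8 FPKM and Upk1b at 8.57 to 17.9 FPKM overlapped in range. Together the 6 genes summed to between 42.6 and 118 FPKM in aWAT, 2.81 and 14.0 FPKM in sWAT, and 0.383 and 2.14 FPKM in iBAT.

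**Figure D1:**
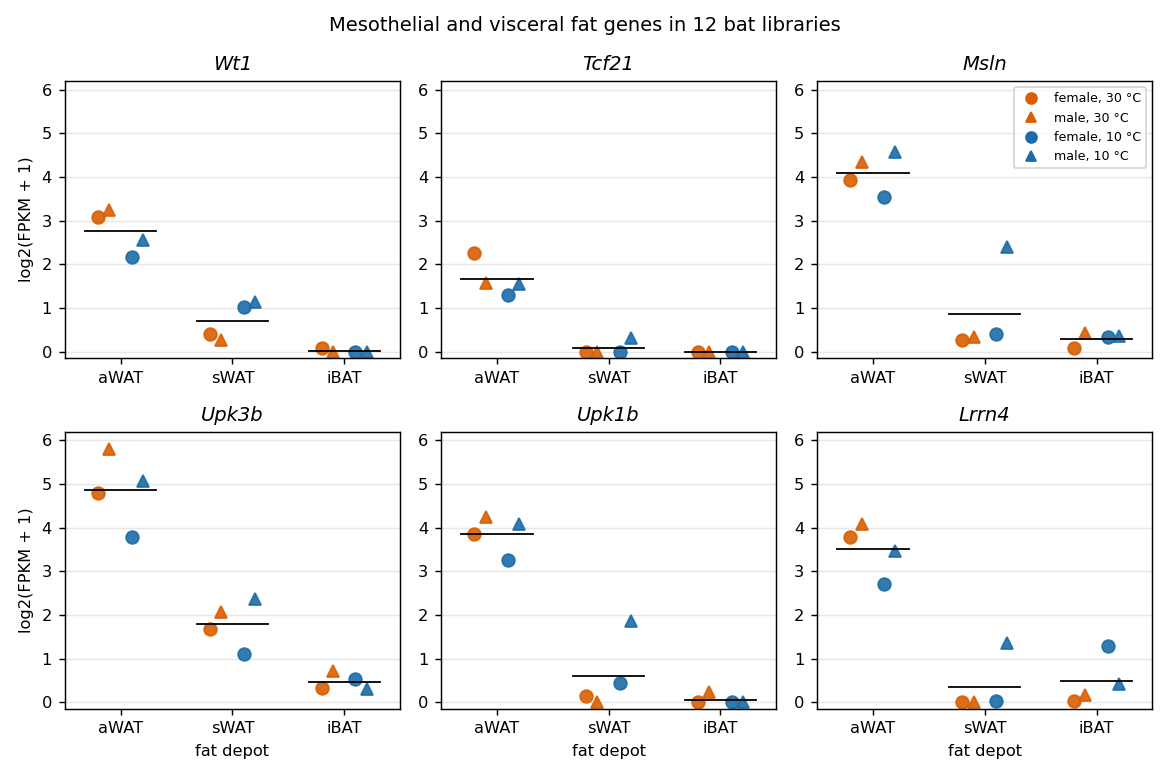
Levels of the 6 genes in the 12 bat libraries, 1 panel per gene; the vertical axis is log2(FPKM + 1), the horizontal axis the fat depot, circles are females, triangles males, orange 30 °C and blue 10 °C, and lines are depot means on the log scale. In each panel the 4 aWAT points lie above the other 8, and the highest point outside aWAT is the male 10 °C sWAT library.

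Among the surface proteins, Msln stood in bat aWAT at 14.1 FPKM in the female and 19.3 in the male at 30 °C, and at 10.7 in the female and 22.8 in the male at 10 °C (16.7 ± 5.37, SD, n = 4 libraries over both temperatures). In sWAT the same order of libraries gave 0.211, 0.263, 0.319 and 4.25 FPKM, and in iBAT 0.0610, 0.344, 0.254 and 0.275 FPKM. The female libraries and the 30 °C male library of sWAT were thus within the range of iBAT, while the male sWAT library at 10 °C stood well above it.

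Upk3b had the highest listed level of the 6, with 26.6 FPKM in the female and 54.7 in the male at 30 °C and 12.8 and 32.7 at 10 °C in aWAT (31.7 ± 17.5, SD, n = 4). In sWAT it had 2.18, 3.20, 1.16 and 4.11 FPKM, and in iBAT 0.245, 0.653, 0.439 and 0.233 FPKM. The depots did not overlap: every sWAT library was above every iBAT library and below every aWAT library. In aWAT between 77.5% and 94.0% of the genes of the table had a lower listed level than Upk3b in the same library.

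Upk1b, a tetraspanin of the uroplakin family, had 13.4, 17.9, 8.57 and 16.0 FPKM in aWAT in the order female and male at 30 °C, female and male at 10 °C (14.0 ± 4.03, SD, n = 4). In sWAT it had 0.105, 0, 0.347 and 2.63 FPKM, and in iBAT it was listed at 0 in 3 libraries and had 0.171 FPKM in the male at 30 °C. As for Msln, the male 10 °C library was the one sWAT library far above iBAT.

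Lrrn4 had 12.9 and 16.0 FPKM at 30 °C and 5.57 and 10.0 FPKM at 10 °C in aWAT (11.1 ± 4.42, SD, n = 4). In sWAT it was listed at 0 in both 30 °C libraries and had 0.0137 FPKM in the female and 1.57 in the male at 10 °C. In iBAT it had 0.0188, 0.128, 1.44 and 0.334 FPKM. It was the member for which an iBAT library, the female at 10 °C, came close to the highest sWAT library.

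Of the transcription factors, Wt1 had 7.43 FPKM in the female and 8.54 in the male aWAT library at 30 °C, and 3.51 and 4.93 at 10 °C (6.10 ± 2.29, SD, n = 4). In sWAT it had 0.312, 0.204, 1.03 and 1.19 FPKM. In iBAT it had 0.0592 FPKM in the female at 30 °C and was listed at 0 in the other 3 libraries, below every sWAT library.

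Tcf21 had the lowest listed level of the 6, with 3.81, 1.98, 1.45 and 1.95 FPKM in aWAT (2.30 ± 1.04, SD, n = 4). Outside aWAT it was listed at 0 in 7 of 8 bat libraries, and the exception was again the male 10 °C sWAT library, with 0.248 FPKM. It lay near the middle of the table, with 39.5% to 49.2% of genes below it in the aWAT libraries.

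The test of these depot differences was limma on log2(FPKM + 1) over all 11025 genes that reached 1 FPKM in at least 2 bat libraries, with Benjamini-Hochberg adjusted p-values, and differences are given ± the standard error relative to the median of all genes. Without the aWAT libraries only Wt1, Upk3b and Lrrn4 would have reached that level, so Tcf21, Msln and Upk1b entered the test through the depot in which they were high and had to differ, and their p-values are given as a description. Against sWAT, with 8.83% of all genes called higher in aWAT, Wt1, Upk3b and Lrrn4 were called higher, as were the 3 that had to differ; with no filter on level the 6 were called too. The difference on the log2 scale was 3.24 ± 0.38 for Msln (adjusted p = 0.000531), 3.06 ± 0.36 for Upk3b (0.000512) and 3.25 ± 0.30 for Upk1b (0.000149). Lrrn4 differed by 3.17 ± 0.31 (adjusted p = 0.000199), Wt1 by 2.06 ± 0.14 (4.09e-05) and Tcf21 by 1.59 ± 0.17 (0.000382). Upk1b, Msln, Lrrn4 and Upk3b ranked 8, 9, 10 and 13 among the 11025 differences, while Wt1 ranked 43 and Tcf21 116. In sWAT, Tcf21 was listed at 0 in 3 libraries, Lrrn4 in 2 and Upk1b in 1, so their sizes and ranks depend in part on the added 1. The same holds for Msln and Wt1, with sWAT medians of 0.291 and 0.672 FPKM. An exact two-sided permutation test of 4 against 4 libraries, taken as unpaired, gave p = 0.0286 for each of the 6, the smallest value it allows. That value follows from the lack of overlap between the depots, and the share of all genes that reach it was not counted. In bulk tissue, more cells of a type and more RNA per cell cannot be told apart.

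Against iBAT, with 15.1% of all genes called higher in aWAT, Wt1, Upk3b and Lrrn4 were called higher. Tcf21, Msln and Upk1b were called too, but they had to differ, so their p-values are again a description. Upk3b differed most, by 4.25 ± 0.36 (limma adjusted p = 7.99e-05), and ranked 2 of 11025. Upk1b differed by 3.66 ± 0.30 (6.58e-05), Msln by 3.65 ± 0.38 (0.000221), Lrrn4 by 2.89 ± 0.31 (0.000222) and Wt1 by 2.60 ± 0.14 (9.52e-06). Tcf21 was listed at 0 in all 4 iBAT libraries and is given no size of difference (limma adjusted p = 0.000262). Upk1b and Wt1 were listed at 0 in 3 iBAT libraries each, so their sizes depend largely on the added 1. Sizes of Msln, Upk3b and Lrrn4 depend on it too, with iBAT medians of 0.265, 0.342 and 0.231 FPKM. Sizes and ranks therefore follow in part the level in aWAT. The exact permutation p was again 0.0286 for each, which again follows from the lack of overlap. Both aWAT comparisons share the 4 aWAT libraries, so they are not independent of each other. A fit that took the code of temperature and sex in the titles as a block called more genes, 2683 in place of 1717 against sWAT and 3722 in place of 2414 against iBAT. It called the same 6 of 6 members, 3 of them after entering through aWAT.

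**Figure D2:**
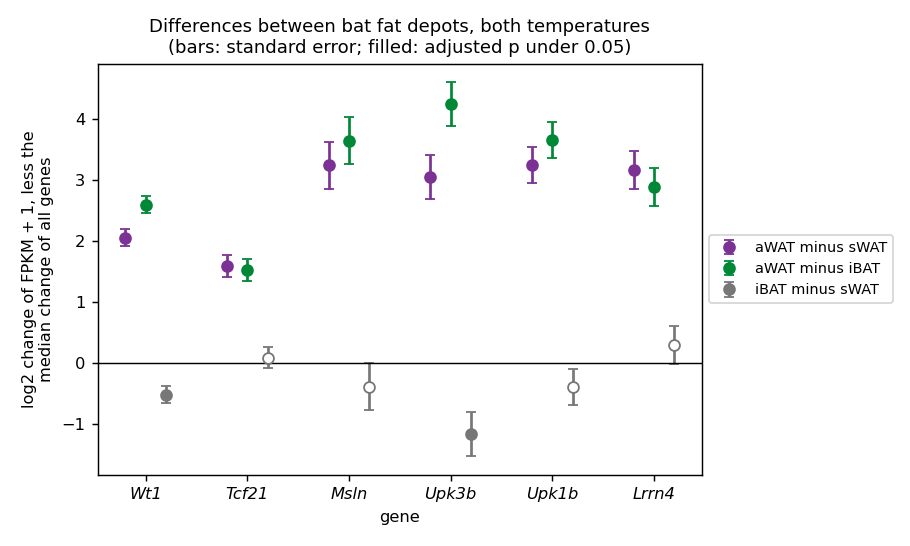
Differences between bat depots over both temperatures for each gene, on the log2(FPKM + 1) scale less the median of all genes; bars are standard errors, filled points have a limma adjusted p under 0.05 and open points do not. Differences of aWAT from sWAT and iBAT run from 1.59 to 4.25, leaving out Tcf21 against iBAT, while iBAT and sWAT differ most for Upk3b (−1.17). Sizes depend in part on the added 1 wherever levels are under 1 FPKM, and largely so where libraries are listed at 0. In iBAT this was so for Tcf21 (all 4 libraries), Wt1 and Upk1b (3 each). In sWAT it was so for Tcf21 (3), Lrrn4 (2) and, in part, Upk1b (1).

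The difference between the depots was tested at each temperature as well, with 2 libraries against 2 and the spread taken from all bat libraries. At 30 °C, where only 0.662% of genes were called higher in aWAT than in sWAT, Wt1 was called higher by 2.75 ± 0.20 (limma adjusted p = 0.000595) and Upk3b by 3.34 ± 0.51 (0.014). Lrrn4 was called too (adjusted p = 0.0021), and it is given no size because both 30 °C sWAT libraries were listed at 0. At 10 °C, with 10.4% of genes called, Wt1 differed by 1.39 ± 0.20 (adjusted p = 0.00154), Upk3b by 2.80 ± 0.51 (0.00492) and Lrrn4 by 2.50 ± 0.43 (0.00406). Tcf21, Msln and Upk1b, which entered the test through aWAT, were called at both temperatures. The 30 °C calls were sensitive to single libraries, with 4 members called without the female and 3 without the male 30 °C sWAT library, and 5 and 4 without the female and the male 30 °C aWAT library. Block fits by title code called 154 in place of 98 genes at 30 °C and 3650 in place of 2416 at 10 °C.

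Against iBAT at 30 °C, with 12.6% of genes called higher, the 6 were called higher, 3 of them after entering through aWAT (Upk3b by 4.62 ± 0.51, adjusted p = 0.000343). At 10 °C, with 0.644% of genes called, Wt1, Upk3b and the 3 that entered through aWAT were called higher, and Lrrn4, whose female iBAT library had 1.44 FPKM, was not (2.09 ± 0.43, adjusted p = 0.0505); with the title code as a block the 6 were called. The 10 °C count fell to 1 without the male 10 °C aWAT library, to 2 without the female and to 1 without the male 10 °C iBAT library. The title block called 3462 in place of 2230 genes at 30 °C and 290 in place of 90 at 10 °C.

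Between iBAT and sWAT, where 30.3% of all genes were lower and 17.2% higher in iBAT, Wt1 and Upk3b were called lower in iBAT. Wt1 was lower by 0.52 ± 0.14 on the log2 scale in iBAT (−0.52, limma adjusted p = 0.0027), and Upk3b had a difference of −1.17 ± 0.36 (0.0118). A share of 2 in 6 is near that of all genes. The difference was −0.39 ± 0.38 for Msln (limma adjusted p = 0.258), −0.38 ± 0.30 for Upk1b (0.149) and 0.30 ± 0.31 for Lrrn4 (0.747). Tcf21, listed at 0 in all 4 iBAT libraries, is given no size (0.73). Wt1 and Upk1b were listed at 0 in 3 iBAT libraries each and Lrrn4 in 2 sWAT libraries, so their sizes depend largely on the added 1. Msln and Upk3b had at most 0.344 and 0.653 FPKM in iBAT, so their sizes depend on it in part. Without the female 10 °C sWAT library 4 members were called in place of 2.

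One subcutaneous library had the highest sWAT level of each of the 6 genes. For Wt1 and Upk3b it was near another sWAT library: Wt1 had 1.19 FPKM against 1.03 in the female at 10 °C, and Upk3b 4.11 against 3.20 in the male at 30 °C. The male 10 °C sWAT library was the highest of the 8 bat libraries outside aWAT for each of the 6, at 12.6% (Upk3b) to 24.3% (Wt1) of the level in the aWAT library of the same temperature and sex. Its summed level of 14.0 FPKM compares with 2.81, 3.67 and 2.87 FPKM in the other 3 sWAT libraries. It was also the sWAT library with the highest summed level of 10 skeletal muscle genes, 709 FPKM, against 356 in the female at 10 °C and 14.6 and 4.81 at 30 °C, whereas the aWAT libraries, with the highest levels of the 6 genes, had 2.81 to 4.99 FPKM of those muscle genes. The part of the muscle content in its values was not tested. Without this library the aWAT differences from sWAT were 3.73 for Msln, 3.59 for Upk1b, 3.49 for Lrrn4, 3.36 for Upk3b and 2.08 for Wt1, and Tcf21 was listed at 0 in the sWAT libraries that remain. Since the library left out is the highest sWAT library for each gene, no smaller raw difference was possible.

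In the cold, Wt1 fell in aWAT, from 7.43 and 8.54 FPKM at 30 °C to 3.51 and 4.93 FPKM at 10 °C. Both cold libraries lay below both warm ones. The change was −0.79 as fitted and −0.66 ± 0.20 relative to the median of all genes (limma adjusted p = 0.0243), in a comparison that called 6.67% of genes lower and 8.66% higher. The call was lost without the female 30 °C (adjusted p = 0.0841), the male 30 °C (0.0991) or the female 10 °C aWAT library (0.173). With 2 libraries against 2, an exact permutation test cannot reach the threshold. In the same libraries 9 genes of brown fat cells summed to 495 and 1068 FPKM at 30 °C and to 9756 and 5542 FPKM at 10 °C, and 5 of the 9 rose. Of 9 endothelial genes 3 fell, with a median of −0.60 and 8 at an unadjusted p under 0.05, and of 7 visceral position genes 3 fell, with a median of −0.51. The part of a changed make-up of the tissue in the fall of Wt1 was not tested.

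The other 5 genes were not called in the cold in aWAT. Upk3b had 26.6 and 54.7 FPKM at 30 °C and 12.8 and 32.7 at 10 °C, lower in each sex, with a change of −0.73 ± 0.51 (adjusted p = 0.268). Lrrn4 was lower in both cold libraries than in both warm ones (−0.72 ± 0.43, adjusted p = 0.206). Upk1b had a change of −0.24 ± 0.42 (adjusted p = 0.568) and Tcf21 of −0.36 ± 0.25 (0.195). Msln was lower in the cold female and higher in the cold male, with a change of 0.06 ± 0.54 (adjusted p = 0.943).

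In sWAT, where 1.02% of genes were called in either direction in the cold, limma called 0 of the 6, and 2 had an unadjusted p under 0.05. These were Wt1, which went from 0.312 and 0.204 FPKM to 1.03 and 1.19 FPKM (0.68 ± 0.20, unadjusted p = 0.00347, adjusted p = 0.166), and Upk1b (1.00 ± 0.42, unadjusted p = 0.0283, adjusted p = 0.407). Wt1 did not overlap between the temperatures, whereas the cold difference of Upk1b, like that of Msln (1.02 ± 0.54, adjusted p = 0.516), was mostly that of the male library. In iBAT, with 2.20% of genes called, limma also called 0 of 6, and 0 had an unadjusted p under 0.05; the lowest adjusted p was that of Lrrn4 (0.85 ± 0.43, adjusted p = 0.363).

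The cold differences of Wt1 in aWAT and sWAT were compared directly. The change in aWAT less that in sWAT was −1.35 ± 0.28 (limma interaction, adjusted p = 0.0164), with 1.73% of genes called lower in this comparison. The call was lost without the male 30 °C (adjusted p = 0.0577), the female 10 °C (0.0583) or the male 10 °C sWAT library (0.0948), and without the female 30 °C (0.0533) or the female 10 °C aWAT library (0.0655). For the other 5 genes the interaction was not called, with adjusted p between 0.189 (Lrrn4) and 0.603 (Upk3b). The change in aWAT less that in iBAT, where 0.336% of genes were called, was called for 0 of 6 by limma, and 2 had an unadjusted p under 0.05, Wt1 (adjusted p = 0.377, listed at 0 in both cold iBAT libraries) and Lrrn4 (−1.59 ± 0.61, adjusted p = 0.403).

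**Figure D3:**
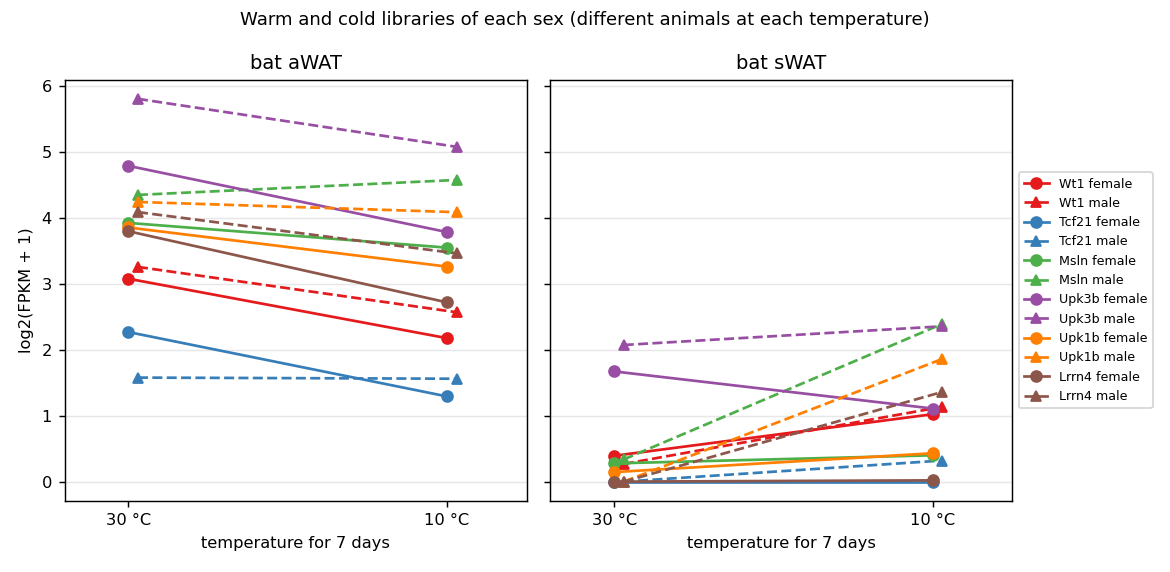
Levels of the 6 genes at 30 °C and 10 °C in bat aWAT (left) and sWAT (right), on the log2(FPKM + 1) scale; circles and solid lines are females, triangles and dashed lines males, and the lines join separate libraries. Both lines of Wt1 fall in aWAT and rise in sWAT, and the male line of each of the 6 genes rises in sWAT.

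Levels relative to Wt1 show how the genes moved against each other in aWAT. The ratio of Msln to Wt1 was 1.90 in the female and 2.26 in the male at 30 °C, and 3.04 and 4.62 at 10 °C. For Upk1b the ratio was 1.81 and 2.09 at 30 °C and 2.44 and 3.24 at 10 °C. Both cold libraries thus had more Msln and Upk1b per Wt1 than both warm ones, whereas the ratio of Lrrn4, at 1.59 to 2.03, overlapped between temperatures. The ratio of Upk3b to Wt1 differed more between the sexes than between the temperatures, with 3.58 and 3.63 in the females and 6.41 and 6.63 in the males. These ratios were not tested.

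Males had the higher aWAT level at both temperatures for Wt1, Msln, Upk3b, Upk1b and Lrrn4. Each comparison is of 1 library with 1, and the genes share these libraries. The share of all genes with this pattern was not counted. For Upk3b the male aWAT library had 2.06 times the level of the female at 30 °C and 2.56 times at 10 °C, and for Msln 1.37 and 2.13 times. Tcf21 was lower in the male at 30 °C, at 0.520 of the female level. Over all bat depots, with sex in the fit and 0.0726% of genes called, limma called 0 of 6, and 2 had an unadjusted p under 0.05. Upk3b had a female minus male difference of −0.68 ± 0.20 (unadjusted p = 0.00797, adjusted p = 0.261) and Msln one of −0.64 ± 0.25 (unadjusted p = 0.0291, adjusted p = 0.36).

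In mouse, for which the labels give no visceral depot, the 6 genes were low. Upk3b and Upk1b were listed at 0 in 7 of 8 mouse libraries, with highest values of 0.0439 and 0.0297 FPKM. Msln reached at most 0.0968 FPKM, Wt1 at most 0.175 and Tcf21 at most 0.207. These 5 were under 1 FPKM in all 8 libraries and were not tested.

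Lrrn4 was the exception in mouse. In iBAT it had 2.44 FPKM in the female and 1.66 in the male at 30 °C, and 1.32 and 0.551 at 10 °C; in sWAT it had 0.403, 0.426, 0.418 and 0.514 FPKM. The lowest iBAT library was above the highest sWAT library, so the depots did not overlap. Lrrn4 passed the filter in mouse through iBAT alone and so had to differ; with no filter it was called too. The difference on the log2(FPKM + 1) scale was 0.73 as fitted and 1.26 ± 0.18 relative to the median of all genes, which itself lay lower in iBAT (limma adjusted p = 0.0104; exact permutation p = 0.0286 with 4 libraries against 4). In this comparison 57.1% of 10689 genes were called lower and 9.34% higher in iBAT. The cold change of Lrrn4 in mouse iBAT was −0.67 as fitted and −0.37 ± 0.25 relative to the median (adjusted p = 0.116, with 14.1% of genes called). In mouse sWAT it was 0.05 as fitted and 0.42 relative to the median, which itself fell in the cold (adjusted p of the fitted value 0.887, with 33.9% called). The difference between these changes was −0.72 as fitted (adjusted p = 0.296, with 0.0936% called). The female minus male difference of Lrrn4 in mouse was 0.21 as fitted and 0.10 ± 0.16 relative to the median (limma adjusted p = 0.5), in a comparison with 0% of genes called.

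**Figure D4:**
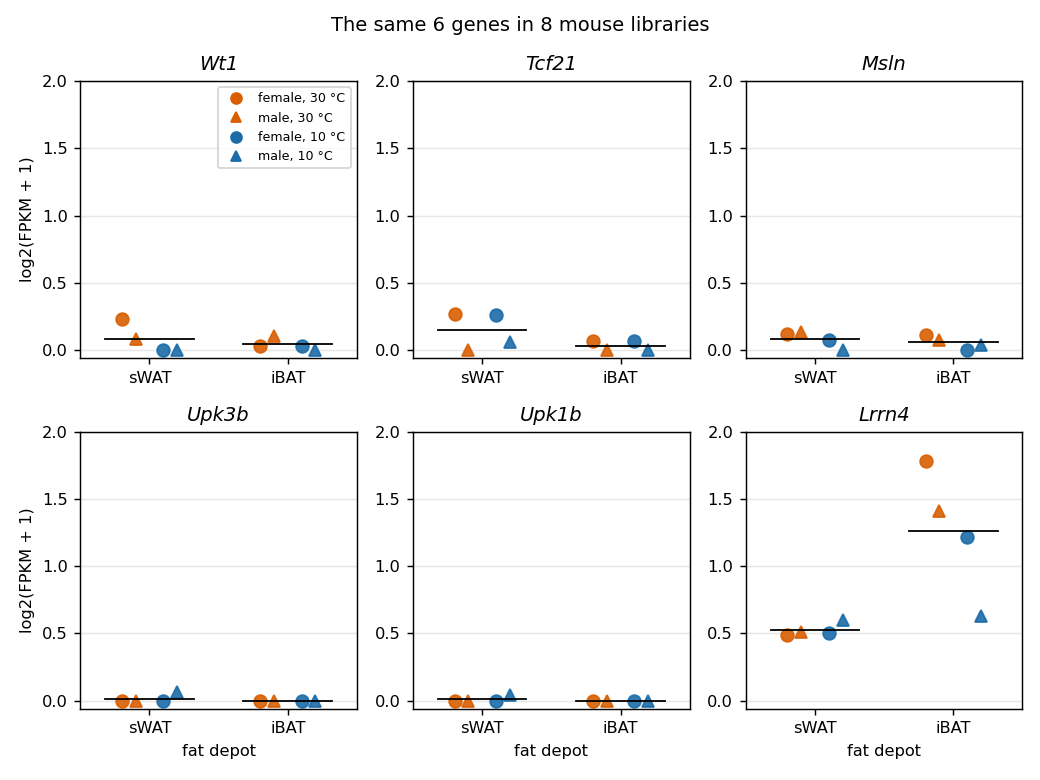
The 6 genes in the 8 mouse libraries, 1 panel per gene; the vertical axis is log2(FPKM + 1) up to 2, the horizontal axis the depot, with circles for females, triangles for males, orange for 30 °C, blue for 10 °C and lines for depot means. Only Lrrn4 rises above 1 FPKM, in 3 of 4 iBAT libraries.

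The label of the set was set beside a list of 24 other mesothelial genes, of which 16 were in the table and 11 passed the filter in the bat. Against sWAT 4 of the 11 were higher in aWAT and 1 lower (8.83% and 6.74% of all genes), with a median difference of 0.49. Against iBAT 7 were higher and 0 lower (15.1% and 6.77% of all genes), with a median of 0.82, beside 0 for all genes by construction. Bnc1 and Krt7 entered the test through aWAT alone and had to differ. Of the 9 that passed without aWAT, 2 were higher and 1 lower than in sWAT, and 5 higher and 0 lower than in iBAT. Bnc1, a zinc finger factor of mesothelium and other epithelia, had 5.27, 5.83, 2.51 and 4.46 FPKM in aWAT, 0.547 in the male 10 °C sWAT library and 0 in the 7 other bat libraries. Krt7, a keratin of simple epithelia, had 3.95, 9.10, 1.02 and 4.99 FPKM in aWAT, 1.05 in the male 10 °C sWAT library and at most 0.0674 in the others. Rspo1, a secreted enhancer of Wnt signalling, was higher than in sWAT (2.15 ± 0.36, limma adjusted p = 0.00354) but not called against iBAT (0.82 ± 0.36, adjusted p = 0.0853). Pkhd1l1 was higher in both comparisons (0.98 ± 0.13 and 0.71 ± 0.13), and Cd200 was lower than in sWAT (−0.81 ± 0.18). Calb2, calretinin, was listed at 0 in 11 of 12 bat libraries, and Muc16, Krt8, Krt18 and Krt19 were not found by name among the genes with values. Bnc1 and Krt7 had the depot order of the members, whereas Efemp1, a matrix protein gene with the highest level in the list, had 101 to 252 FPKM in sWAT and 43.6 to 186 FPKM in aWAT (−0.62 ± 0.36, adjusted p = 0.298).

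Of the tested relatives and partners of the members, limma called 0 higher in aWAT than in both other depots. Of 16 relatives and partners, 9 passed the filter, and against sWAT 0 were higher in aWAT and 2 lower (Basp1, a partner of Wt1, and Cited2), while against iBAT 2 were higher (Basp1 and Msc) and 0 lower. Upk3bl, the closest relative of Upk3b, had at most 0.763 FPKM in aWAT, and Upk1a at most 0.499. Mslnl was listed at 0 in 10 of 12 bat libraries. The bladder uroplakin genes Upk2 and Upk3a had at most 0.116 and 0.0680 FPKM in aWAT. A list of 8 urothelial genes in the table summed to 0.930 to 1.51 FPKM in aWAT, 0.607 to 0.914 in sWAT and 0.549 to 1.06 in iBAT, and 0 of the 8 passed the filter.

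Genes of body position were counted in the same comparisons. Of 7 visceral position genes tested, 3 were higher and 1 lower in aWAT than in sWAT (8.83% and 6.74% of all genes), and 3 higher and 1 lower than in iBAT (15.1% and 6.77%). One of the 3 in each comparison was Gata6, which entered through aWAT alone and had to differ. Osr1, a factor of lateral and intermediate mesoderm, had 20.0, 19.3, 9.57 and 10.9 FPKM in aWAT and at most 6.80 in sWAT and 1.40 in iBAT (1.48 ± 0.15 against sWAT, limma adjusted p = 0.000297). Hoxa5 was higher than in sWAT (1.30 ± 0.15) and lower than in iBAT (−0.77 ± 0.15), and Hoxc8 the reverse (−0.70 ± 0.15 and 3.56 ± 0.15). Of 8 subcutaneous and brown position genes, 4 were lower and 0 higher than in sWAT, and 4 lower and 2 higher than in iBAT. Tbx15, a T-box factor of subcutaneous and brown fat, lay the other way from the members: 0.0607 to 0.255 FPKM in aWAT against 7.70 to 11.2 in sWAT and 4.96 to 13.5 in iBAT (−3.20 ± 0.19 against sWAT, adjusted p = 2.41e-05).

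Marker lists of abdominal organs were also counted, as far as their genes were in the table. Of 14 kidney and adrenal genes 8 were in it, and of 17 testis and ovary genes 9. Markers such as Alb, Slc34a1 and Prm1 were not found by name, so the lists are partial. Of 15 genes of gut, liver and pancreas, 7 were in the table, and they summed to 4.81 to 9.37 FPKM in aWAT, 0.816 to 3.32 in sWAT and 0.760 to 2.37 in iBAT. Most of that sum was Apoa1, an apolipoprotein, at 4.48 to 8.70 FPKM in aWAT; between 4 and 5 of the 7 were listed at 0 in each bat library. Of the 3 that passed the filter, Apoa1 was called higher in aWAT than in both other depots, and 1 was lower than in iBAT. Of the genes of kidney and adrenal and of testis and ovary that passed the filter, 3 and 2 in number, limma called 0 higher in aWAT and 1 lower than in sWAT over both temperatures, and 3 of these 5 had an unadjusted p under 0.05 against sWAT and 0 against iBAT. At 10 °C alone, with 10.4% of all genes called higher, 1 of the 2 testis and ovary genes was higher in aWAT than in sWAT. The part of other organs in the levels of the 6 genes was not tested.

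Across the 12 bat libraries the pairs of members had Pearson r between 0.9155 and 0.9956 on the log2(FPKM + 1) scale, over libraries that share the split by depot. The 10 genes most like the mean of the members, among 7578 genes with a mean of at least 5 FPKM in any group, were Bnc1 (r = 0.995), Dapl1 (0.994), Crb2 (0.991), Apoa1 (0.986), Lztfl1 (0.984), Gm14860 (0.984), Ptgis (0.980), Mgp (0.979), Megf6 (0.975) and Wnt2b (0.973). Dapl1 had 69.8 and 78.8 FPKM in aWAT at 30 °C, 27.3 and 41.1 at 10 °C, 5.76 in the male 10 °C sWAT library and 0 in the 7 others. Mgp, matrix Gla protein, had 69.1 to 157 FPKM in aWAT, 4.81 to 19.5 in sWAT and 3.81 to 13.7 in iBAT. Crb2 encodes a protein of epithelial polarity, Ptgis makes prostacyclin and Wnt2b is a Wnt ligand. Since these genes were chosen for this pattern, their depot differences are a description, and no p is given for them.

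By member, the most alike gene was Ptgis for Wt1 (r = 0.980), Crb2 for Tcf21 (0.981) and for Lrrn4 (0.977), Dapl1 for Msln (0.989) and for Upk1b (0.994), and Apoa1 for Upk3b (0.979). Slc6a4, the serotonin transporter gene, was also among the 3 most alike for Tcf21 (0.970), with 1.76 to 5.66 FPKM in aWAT and at most 0.337 elsewhere in the bat. In mouse, over 8 libraries, the genes most like Lrrn4 were Stard7 (0.987), Pptc7 (0.972) and Chchd7 (0.966), none of which was among those most like it in the bat.

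**Figure D5:**
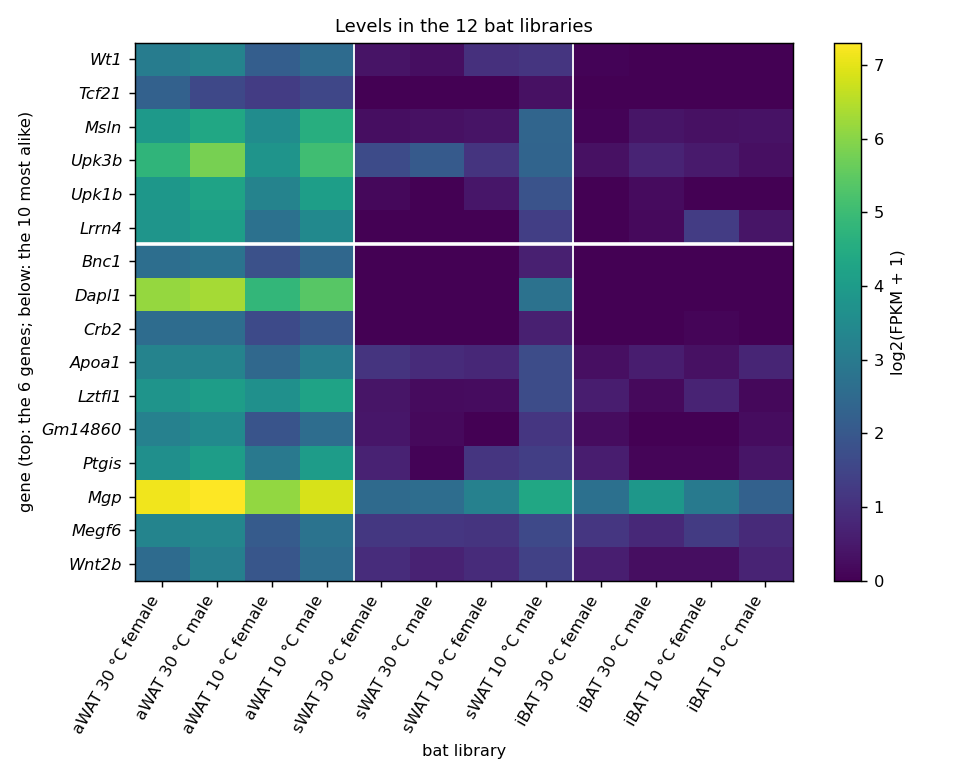
Levels on the log2(FPKM + 1) scale in the 12 bat libraries, with the 6 genes above the white line and the 10 genes most like their mean below it; columns are libraries grouped by depot. The 4 aWAT columns are brightest in every row, and the male 10 °C column is the brightest of the sWAT columns in most rows.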

How the data were processed

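Total RNA of fat, extracted with a kit for lipid tissue, was sequenced on an Illumina HiSeq 2000, per the labels' protocols. The authors deposited FPKM values for 14871 genes with mouse Ensembl identifiers in 20 libraries. CASAVA 1.8 is a tool of the submitters' processing notes. How reads were aligned and counted, on which build, and how bat reads were tied to mouse genes is not given in the sources used here. Symbols were found for 14723 identifiers and not for 148. Relative depth was read from ratios of low values (under 0.2 FPKM) within 0.5% of ratios of whole numbers up to 5, which 33.7% or more of low genes fitted in mouse and 57.8% or more in bat. Counting intervals and floors were not computed, since read totals are unknown.

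The scale was log2(FPKM + 1), on which differences shrink where levels are under about 1 FPKM. A gene was tested in a species if 2 or more of its libraries reached 1 FPKM, which held for 10689 genes in mouse and 11025 in bat. One limma fit per species (limma 3.58.1, R 4.3.3, trended prior) held all its groups, with Benjamini-Hochberg adjustment over all genes and a threshold of 0.05. Differences are printed less the median of all genes; p-values are those before this shift. Single genes were also tested over 4 against 4 libraries by exact permutation (R 4.3.3). It took the libraries as unpaired and did not use temperature, sex or title code. Since nothing states that libraries came from separate animals, p-values measure the spread between these libraries. The script was tested on simulated data. Bat libraries with the same title code in different depots deviated from their group means together (r 0.26 to 0.547 over 6 pairs, against −0.192 to 0.0524 over 9 pairs with other codes), so the code was also used as a block. The labels do not state that such libraries share an animal. Alternatives changed the pseudocount, filter, scaling, prior, block and groups in the fit, and left out each library.

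The 6 genes and the 16 other gene lists were chosen with earlier results of these data known. The members were described in every library. From each list the text gives counts and names genes called in a comparison of bat aWAT with another depot, or those of highest level, and the genes most alike are those of highest Pearson r.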

Additional observations from a re-analysis of the deposited data

Results flagged for a closer look

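In the 19 bat and mouse sets of 4 libraries of a depot that were examined, 5 had 1 library far from the other 3, by the gap to its nearest neighbour as a share of the whole range. Chance gives about 1 in 20 sets of values without ties. That rate does not apply to the 3 sets with 3 libraries listed at 0, in which any value above 0 gives a gap of 1.0. Nor does it apply to Lrrn4 in bat sWAT, with 2 libraries listed at 0 and 1 at 0.0137 FPKM. Each set also mixes both temperatures and both sexes. The male 10 °C library of bat sWAT was the one apart for Msln (gap 0.942 of the range, 4.25 FPKM), Lrrn4 (0.986, 1.57 FPKM) and Tcf21 (1.0, 0.248 FPKM, with the other 3 listed at 0). These 3 flags come from 1 library and are not independent. In bat iBAT, Wt1 had its one value above 0 in the female at 30 °C (gap 1.0 of the range, 0.0592 FPKM), and Upk1b in the male at 30 °C (1.0, 0.171 FPKM).

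The cold change of Wt1 differed between bat aWAT and sWAT by −1.35 on the log2(FPKM + 1) scale (limma interaction, adjusted p = 0.0164), with lower levels in the cold in 2 of 2 sexes in aWAT and higher levels in 2 of 2 in sWAT.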

How the results depend on the processing

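Over both temperatures the 6 genes were called higher in bat aWAT than in sWAT and than in iBAT under each of 12 alternatives, and in each of the 12 fits that left out 1 library. Tcf21, Msln and Upk1b entered all but the fit with no filter through aWAT, so their calls in the others are no sign of stability. The same held for Wt1 and Lrrn4 when 1 FPKM was asked in 4 libraries. It also held for Wt1 without either 10 °C sWAT library. For Lrrn4 it held without the male 10 °C sWAT or the female 10 °C iBAT library. Upk3b reached 1 FPKM in every sWAT library, so its calls do not depend on that. No called value of a single gene changed sign under any alternative run. At 30 °C the count against sWAT was 4 when only the groups compared were fitted, with 3 to 6 over the leave-one-out fits; at 10 °C it was 5 to 6 over these. Against iBAT at 10 °C the count was 0 with only the groups compared and 1 to 6 over the leave-one-out fits, and 6 with the title code as a replicate block, which adds Lrrn4 and changed no other call. Between iBAT and sWAT the leave-one-out fits gave 2 to 4. The fall of Wt1 in cold aWAT was lost with a pseudocount of 0.1 (count 0, adjusted p = 0.161) and with only the groups compared (0, adjusted p = 0.148), and the leave-one-out fits gave 0 to 1. Its interaction with sWAT was lost with only the groups compared (0, adjusted p = 0.0563), with 0 to 1 over the leave-one-out fits. Mouse Lrrn4 had a count of 0 with at least 1 FPKM asked in 4 libraries, because it was then filtered out. The causes of the other losses were not tested. For the sex comparisons the fit of only the groups compared was not run.

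Counts over all genes moved more. Against sWAT 1717 genes were called (981 to 2683 over the alternatives) and against iBAT 2414 (1355 to 3722). For iBAT against sWAT the count was 5237 (4269 to 6304), for the cold in aWAT 1690 (298 to 1999), in sWAT 112 (22 to 176) and in iBAT 243 (0 to 319), and for the mouse depots 7097 (5320 to 7723). The split of higher and lower calls moved with scaling: against sWAT from 974 and 743 to 735 and 1138 without the 10 highest genes, and against iBAT from 1668 and 746 to 1081 and 1074 with quantile normalization. Unknown read totals limit what values under about 1 FPKM can show.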

Other observations

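Genes of other cell types were counted between the bat depots over both temperatures, beside 8.83% of all genes higher and 6.74% lower in aWAT than in sWAT. Against iBAT the shares of all genes were 15.1% higher and 6.77% lower. Of 11 fibroblast and progenitor genes tested, 6 were lower and 1 higher in aWAT than in sWAT, and 4 were higher and 0 lower than in iBAT. Dpp4, a surface protease of fat precursors, was the one higher in both, and it entered through aWAT alone and had to differ. By temperature, limma called 0 of the 11 lower than in sWAT at 30 °C and 7 at 10 °C. Against iBAT it called 6 higher at 30 °C and 0 at 10 °C. Of 9 brown fat cell genes, 6 were higher in aWAT than in sWAT and 3 lower than in iBAT. By temperature, 1 was higher than in sWAT at 30 °C and 6 at 10 °C, with 0.662% and 10.4% of all genes higher. Against iBAT, 5 were lower at 30 °C and 0 at 10 °C, with 844 and 19 of 11025 genes lower. Of 8 macrophage genes, 2 were lower in aWAT than in sWAT and 6 higher than in iBAT. Against sWAT, 0 were lower at 30 °C and 7 at 10 °C, with 25 and 1270 of 11025 genes lower. Against iBAT, 5 were higher at 30 °C and 0 at 10 °C, with 12.6% and 0.644% of all genes higher. Of 9 endothelial genes, 1 was lower than in sWAT and 1 higher than in iBAT, near the shares of all genes. At 10 °C alone, 5 of the 9 were lower than in sWAT. Of 4 genes of skin and mammary epithelium and 2 of lymphocytes, limma called 0 against sWAT, with 2 and 0 at an unadjusted p under 0.05. The 9 skeletal muscle genes tested were lower in aWAT than in sWAT over both temperatures, which rested on the 10 °C libraries. Limma called 9 of them lower at 10 °C (median −4.60) and 0 at 30 °C (median −0.25). All 9 were higher in cold than in warm sWAT, with 1.02% of all genes called in either direction.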
